A study of Mus musculus with 2 samples.

Results

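The regions described here are the 2688 ATAC-seq peaks that the deposited PDGFRα list of unique peaks places in introns. They make up 33.6% of the 8002 peaks in that list, and both lists of the study together hold 22485. ATAC-seq uses a transposase to cut and tag accessible DNA, so a peak marks a stretch of open chromatin. The cells were C57BL/6 mouse adipose progenitors, sorted with magnetic beads by CD137 or by PDGFRα, differentiated in an adipogenic cocktail and given 1 µM dexamethasone, a glucocorticoid. Both groups carried the drug, so none of the values measures its effect. The labels give fat of 2 depots without saying which depot gave which cells, and they do not say how many animals were used. The extraction text of both samples speaks of embryonic cells and the zona pellucida, which are not adipose, and whether it belongs to these libraries could not be settled from the labels. Each group is 1 library, so differences between the groups could not be set against replicate spread, and p-values are left out. The reference throughout is the 4584 intronic peaks of the CD137 list. The lists hold positions, a gene ID and a place class and no heights or read numbers, so sequencing depth is unknown. A gene with no listed peak may be open in both groups or in neither, because only peaks unique to 1 group are listed. For the same reason the lists cannot check the sorted cell type against its markers.

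Introns hold many of the enhancers of mammalian genes, and long genes of development, signalling and cell adhesion often carry several of them. An intron can also contain an alternative promoter, from which a shorter transcript of the same gene or a separate noncoding RNA begins. In fat progenitors, CD137 is a marker associated with beige precursors, which can form heat-producing adipocytes, and PDGFRα marks stromal cells that give rise to fat cells and fibroblasts.

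A few intronic peaks lay over a transcript start that RefSeq annotates inside the intron, and these are the members for which sequence can be shown. Of the PDGFRα intronic peaks 22 (0.818%, Wilson 95% interval 0.541 to 1.24%) covered such a start, and of the CD137 intronic peaks 32 did (0.698%, 0.495 to 0.984%). In 18 of the 22 the start belonged to a long noncoding RNA, as in Esrrg, which encodes an estrogen-related receptor, and in Ptpn14, a phosphatase that binds YAP. In the other 4 it was a start of the host gene itself, in Trak1, Eml1 and Tbc1d22a. Trak1 encodes an adaptor that links mitochondria to kinesin, Eml1 a microtubule-binding protein and Tbc1d22a a protein with a Rab GTPase-activating domain. Of the CD137 peaks over a start, 5 covered one of the host gene.

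The 4 windows are shown because they place unique PDGFRα peaks on named alternative promoters. Each holds the 250 bases before the start, from RefSeq (GRCm38.p6, the plus strand of the genome), 5′ to 3′, and lies wholly inside its peak. Trak1 had 2 such peaks, 85.3 and 105.9 kb into its 177.4 kb span, with the windows at chr9:121382544-121382793 and chr9:121403196-121403445. The Eml1 window is chr12:108495046-108495295, 124.3 kb into a gene of 168.6 kb. The Tbc1d22a window is chr15:86277425-86277674, 63.3 kb into a gene of 284.1 kb. Capitals mark matches to the motif words described after the sequences.
Trak1 first start: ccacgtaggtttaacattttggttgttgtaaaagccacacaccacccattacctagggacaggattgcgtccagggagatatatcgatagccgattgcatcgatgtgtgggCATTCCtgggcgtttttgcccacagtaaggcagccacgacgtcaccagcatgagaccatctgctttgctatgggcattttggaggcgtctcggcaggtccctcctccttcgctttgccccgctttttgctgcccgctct
Trak1 second start: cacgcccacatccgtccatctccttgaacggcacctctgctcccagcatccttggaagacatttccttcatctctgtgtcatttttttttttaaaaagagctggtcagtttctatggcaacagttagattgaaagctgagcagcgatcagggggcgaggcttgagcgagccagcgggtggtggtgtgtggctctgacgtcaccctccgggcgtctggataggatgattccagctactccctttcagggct
Eml1: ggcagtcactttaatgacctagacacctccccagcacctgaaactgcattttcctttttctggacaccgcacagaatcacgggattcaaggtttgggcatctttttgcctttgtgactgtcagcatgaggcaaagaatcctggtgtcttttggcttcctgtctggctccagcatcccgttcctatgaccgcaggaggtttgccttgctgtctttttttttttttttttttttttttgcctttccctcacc
Tbc1d22a: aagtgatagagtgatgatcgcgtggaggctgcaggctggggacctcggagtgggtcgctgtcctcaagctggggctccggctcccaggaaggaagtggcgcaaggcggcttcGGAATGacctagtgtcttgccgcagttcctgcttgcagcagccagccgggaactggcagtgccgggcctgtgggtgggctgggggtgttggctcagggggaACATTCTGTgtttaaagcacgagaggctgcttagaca

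The windows were searched on both strands for 6 motif words. They were ACANNNTGT (letters shared by many glucocorticoid response elements), CATTCC (TEAD), TGANTCA (AP-1), CCCNNGGG (EBF), TTGGCA (part of an NFI site) and TTGCNNAA (C/EBP). The Tbc1d22a window held 1 glucocorticoid match, ACATTCTGT, and 1 TEAD match, read as GGAATG on this strand. The first Trak1 window held 1 TEAD match, and no word matched in the second Trak1 window or at Eml1. No 2 matches overlapped. Of 32841 promoter windows of the same length in the RefSeq table, 5.84% held the glucocorticoid word, 12.6% the TEAD word, 6.75% the AP-1 word, 11.8% the EBF word, 12.3% the NFI word and 9.57% the C/EBP word. The Tbc1d22a window was 62% G and C with 12 CpG sites, the Trak1 windows 53.6% with 13 and 53.2% with 10, and the Eml1 window 46.4% with 4. The median over all windows was 52.4% with 6 CpG sites. These matches describe letters, not bound sites.

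Nearly all members had a protein-coding host. By position, 2559 of the 2688 peaks (95.2%) had their centre inside a RefSeq protein-coding gene, 2541 of them in 1 gene and 18 in 2 or more overlapping genes. A further 54 lay only in genes of other kinds, 46 of them in long noncoding RNA genes, and 75 lay in no RefSeq gene, although the deposited lists class them as intronic. The hosts numbered 1777, which is 8.12% of the 21887 protein-coding genes, and the CD137 intronic peaks had 2471 hosts (11.3%). Because the CD137 list is longer, it was also brought to 2688 peaks by the exact rarefaction formula, which gives the number of hosts that a list of that length would keep on average. The CD137 peaks would then have 1734 hosts, so the PDGFRα peaks were spread over slightly more genes at equal number.

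The hosts were long genes and were divided almost evenly between genes that only PDGFRα intronic peaks marked and genes that both lists marked. The median host measured 113.9 kb (quartiles 57.4 and 233.4 kb), against 17.2 kb for all protein-coding genes and 116.1 kb for the CD137 hosts. Of the 1777 hosts 886 (49.9%, or 4.05% of all protein-coding genes) had no CD137 intronic peak, and 891 had both. The shared genes were 36.1% of the CD137 hosts. Genes with PDGFRα peaks only had a median length of 66.2 kb, and genes with both 193.1 kb.

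Peaks per Mb of gene span were highest in genes of 100 to 300 kb in both lists. In genes below 20 kb there were 0.569 PDGFRα intronic peaks per Mb, in genes of 20 to 50 kb 2.09, in genes of 50 to 100 kb 2.68, in genes of 100 to 300 kb 3.24 and in genes above 300 kb 2.29. The CD137 values were 0.836, 2.50, 4.20, 5.69 and 4.61. The share of PDGFRα among the intronic peaks of both lists was 37.0% (exact 95% interval 35.9 to 38.1%). It was 45.6% (42.0 to 49.3%) in genes of 20 to 50 kb, 38.9% (36.2 to 41.7%) in genes of 50 to 100 kb, 36.2% (34.4 to 38.1%) in genes of 100 to 300 kb and 33.2% (31.3 to 35.3%) above 300 kb. Below 20 kb there were only 51 PDGFRα and 75 CD137 peaks and the interval ran from 31.8 to 49.6%. The gap between the genes of 20 to 50 kb and those above 300 kb was 12.4 percentage points (Newcombe 95% interval 8.31 to 16.5). Genes above 300 kb held 27.2% of the PDGFRα and 32.0% of the CD137 intronic peaks, a difference of -4.75 points for PDGFRα minus CD137 (-6.89 to -2.58). These intervals cover counting error only and treat peaks as independent, although peaks of 1 gene share that gene.

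**Figure D1:**
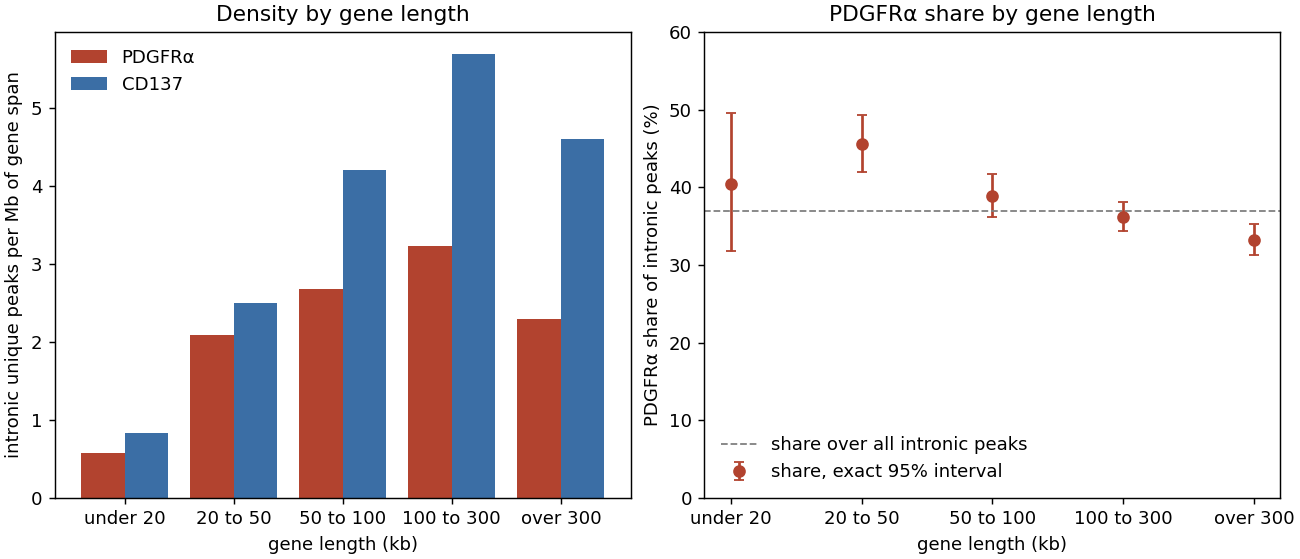
Left, intronic unique peaks per Mb of gene span (y axis) in 5 classes of gene length in kb (x axis), PDGFRα in red and CD137 in blue. Right, the PDGFRα share of the intronic peaks of both lists in percent with exact 95% intervals, with the share over all intronic peaks, 37.0%, as a dashed line. The share is 45.6% at 20 to 50 kb and 33.2% above 300 kb.

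Long genes were more often hosts, and the mean number of PDGFRα intronic peaks per host rose with length. A PDGFRα intronic peak was present in 0.422% of genes below 20 kb, 6.26% of genes of 20 to 50 kb, 16.5% of genes of 50 to 100 kb, 35.4% of genes of 100 to 300 kb and 59.2% of genes above 300 kb. A host of 20 to 50 kb held 1.06 of them on average and a host above 300 kb held 2.22, where a CD137 host of that length held 3.30. These means leave out genes without a peak and cannot fall below 1, so they do not show whether peaks rise in proportion to length. Over all genes, hosts or not, PDGFRα peaks per Mb were 2.09 at 20 to 50 kb and 2.29 above 300 kb. Of the 1777 hosts 1301 had 1 peak, 310 had 2, 84 had 3, 38 had 4 and 44 had 5 or more. Their median lengths were 88.1, 183.3, 283.9, 321.6 and 474.0 kb in the same order, and the median density stayed between 1.06 and 1.25 peaks per 100 kb. This density too was taken over hosts only. The 100 genes with the most peaks held pairs of gene and peak equal to 17.0% of the PDGFRα intronic peaks.

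The genes with the most PDGFRα intronic peaks differed widely in how many CD137 peaks lay beside them. Celf4, an RNA-binding protein gene of 276.9 kb on chromosome 18 (25477620 to 25754520), had 9 PDGFRα and 0 CD137 intronic peaks. The first of the 9 lay at 25540088 to 25541732 and the last at 25726520 to 25727487, an unbroken row over 186.1 kb. Arhgap26, a gene of 774.7 kb, had 9 and 8, and the cAMP phosphodiesterase gene Pde4d had 9 and 11 over 1302 kb.

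A pair of potassium channel genes also held far more PDGFRα than CD137 peaks. Kcnma1, which encodes the pore of the large-conductance calcium-activated potassium channel, had 7 PDGFRα peaks and 1 CD137 peak in 712.8 kb on chromosome 14. Its 7 PDGFRα peaks lay between 23624127 and 23893244 with none of the other list between them, and the CD137 peak lay apart at 23428261 to 23429683. Kcnab1, a potassium channel beta subunit gene of 429.0 kb on chromosome 3, had 6 and 0, which the deposited list divides between 2 Ensembl IDs, ENSMUSG00000102437 and ENSMUSG00000027827. Fry, a gene of 379.1 kb whose product associates with microtubules, had 6 and 1, and Farp1, a gene of 248.6 kb, had 6 and 1. Kcnab1, Fry and Farp1 were picked from 12 genes with 6 PDGFRα peaks by their low CD137 numbers, and the rest, such as Bach2 (6 and 2), Ptprm (6 and 7) and Nfia (6 and 10), had 2 to 10 CD137 peaks. The nuclear receptor gene Rora had 7 and 4, Kalrn 7 and 6, and the receptor phosphatase gene Ptprg 7 and 7.

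**Figure D2:**
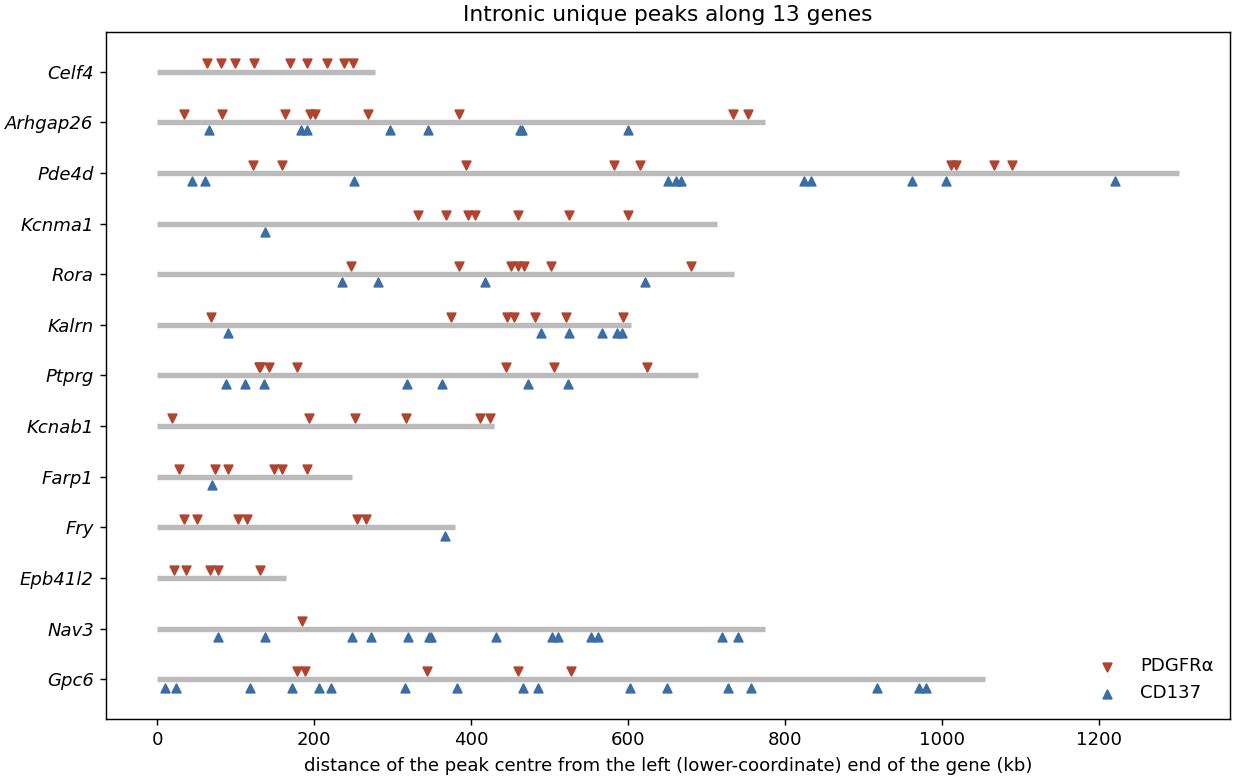
Positions of intronic unique peaks in 13 genes, as the distance of the peak centre from the lower-coordinate end of the gene in kb (x axis), with 1 grey bar per gene drawn to its length. Red triangles above the bar are PDGFRα peaks and blue triangles below it CD137 peaks. Celf4, Kcnab1 and Epb41l2 carry red triangles only, and Nav3 carries 1 red and 14 blue.

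After Celf4 and Kcnab1, the genes with the most PDGFRα intronic peaks and no CD137 intronic peak had 5 each. They were Epb41l2, a membrane skeleton protein gene (163.7 kb), the muscarinic receptor gene Chrm3 (485.6 kb), Aff2 on the X chromosome (511.9 kb) and the synaptic adhesion gene Nlgn1 (911.1 kb). The hosts with the most CD137 intronic peaks were the glypican gene Gpc6 (5 PDGFRα and 17 CD137), Nav3 (1 and 14), Macrod2 (3 and 14) and, with 12 CD137 peaks each, Anks1b (2 and 12) and Opcml, which encodes a neural adhesion protein (1 and 12). The first 4 of these measured between 774.5 and 1998 kb. Over the 206 genes with 6 or more intronic peaks of both lists together, the PDGFRα share per gene had a median of 33.3% (quartiles 16.7 and 50%). Of these genes 12 had no PDGFRα peak, 2 had only PDGFRα peaks and 41 had more than 50%. The 2 were Celf4 and Kcnab1.

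Relative to length the order of genes was different. Among the 166 hosts with 3 or more PDGFRα intronic peaks the median was 1.10 peaks per 100 kb (quartiles 0.691 and 1.65), and the 442 CD137 hosts with 3 or more CD137 peaks had 1.24 (0.793 and 1.93). These values were not brought to equal list length, and the CD137 list is longer. The densest PDGFRα hosts follow. The densest was Cdk8, the kinase of the Mediator complex, with 3 peaks in 72.1 kb of chromosome 5 (4.16 per 100 kb) and no CD137 intronic peak. They lay at 146240794 to 146242032, 146272736 to 146273966 and 146297333 to 146298447, so they were spread over the gene. Shld2, a subunit gene of the shieldin complex of DNA repair, had 4.07 per 100 kb, and the collagen VIII gene Col8a1 had 3.83, with 5 PDGFRα and 3 CD137 peaks in 130.5 kb. The Rab5 exchange factor gene Rin3 had 3.70, Cfdp1 3.42, the small GTPase gene Rab31 3.31, Celf4 3.25 and Rhoj 3.22. Celf4 was the one gene on both this ranking and that by number.

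Inside genes, PDGFRα peaks were grouped about as closely as CD137 peaks. There were 96 pairs of PDGFRα intronic peaks whose centres lay in the same gene within 10 kb. The 258 CD137 pairs correspond to 88.7 at a list length of 2688, a ratio of 1.08, and the ratio was 1.07 within 20 kb and 1.05 within 50 kb. In the 310 genes with exactly 2 PDGFRα intronic peaks the median gap was 24.4% of the gene's length (quartiles 13.8 and 42.6%) or 40.9 kb. In the 495 genes with exactly 2 CD137 peaks it was 25.02% (11.2 and 42.4%) or 41.1 kb. A smaller part of the PDGFRα peaks had company at all. Of them 47.2% (Wilson interval 45.4 to 49.1%) shared the host with another PDGFRα intronic peak, where the CD137 list at equal length would have 50.7% and at full length has 62.7%.

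The tightest rows of 3 PDGFRα peaks spanned 10.1 to 16.2 kb from the first centre to the last. In Chchd3, which encodes a subunit of the mitochondrial cristae-organising complex, 3 centres fell within 10.1 kb of chromosome 6, at 32848303 to 32849581, 32853393 to 32855036 and 32858386 to 32859729. Chchd3 had 4 PDGFRα and 4 CD137 intronic peaks in all. In the kinesin gene Kif6 (5 and 1) 3 centres lay within 10.4 kb, in Ptprg within 12.6 kb, in Rhoj (3 and 1) within 15.9 kb, and in Rora and the Rap exchange factor gene Rapgef5 (3 and 1) within 16.2 kb each. All 3 peaks of Rhoj belonged to its row. The longest unbroken rows, with no CD137 intronic peak between, were the 9 of Celf4, the 7 of Kcnma1, and the 6 of Fry and of Kcnab1. Of all 10 unbroken rows of 5 or more PDGFRα peaks, those 4 had 6 or more, and those of exactly 5 included Epb41l2, Farp1, Chrm3, Aff2 and Nlgn1. There were 98 unbroken rows of 3 or more PDGFRα peaks and 358 of CD137 peaks, counts that also carry the longer CD137 list.

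Whether 2 intronic peaks of a gene came from the same list depended on the distance between them. The change lay at about 5 kb, a limit chosen after the data were seen. All pairs of peaks in a gene were counted, adjacent or not. Among the 277 pairs of intronic peaks in the same gene within 5 kb, 195 (70.4%) joined peaks of opposite lists, 22 joined 2 PDGFRα peaks and 60 joined 2 CD137 peaks. Over all possible pairs of intronic peaks 46.6% join opposite lists. Beyond 5 kb the opposite share was 41.5% of 9664 pairs, between 39.4 and 41.8% in every class of distance. Within 5 kb only 18.4% of the partners of PDGFRα peaks were PDGFRα peaks, while 61.9% of the partners of CD137 peaks were. From 5 to 10 kb these values were 45.5 and 30.9%, so the order turned. The pair counts were 36 opposite, 5 PDGFRα and 10 CD137 up to 2 kb, 159, 17 and 50 from 2 to 5 kb, and 177, 74 and 198 from 5 to 10 kb.

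**Figure D3:**
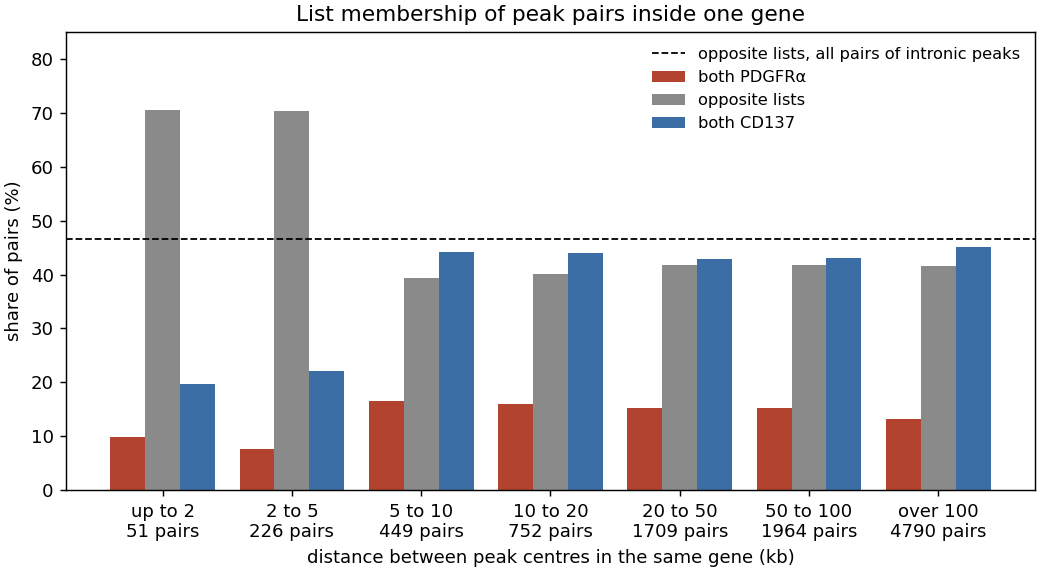
Pairs of intronic unique peaks inside 1 gene by distance between centres in kb (x axis, with the number of pairs) and the share of pairs in percent (y axis) that join 2 PDGFRα peaks (red), opposite lists (grey) or 2 CD137 peaks (blue). The dashed line is the opposite share over all pairs of intronic peaks, 46.6%. The grey bars are at 70.6 and 70.4% up to 5 kb and between 39.4 and 41.8% beyond.

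The closest opposite neighbours nearly touched. In Arhgap6 on the X chromosome the PDGFRα peak at 169142646 to 169143638 was followed by a CD137 peak at 169143772 to 169144616, with centres 1.05 kb apart. Similar neighbours lay in the myosin gene Myo3b (1.22 kb), the HMG-box gene Tox (1.22 kb), the ubiquitin ligase gene Mid1 (1.29 kb) and the phosphatidate phosphatase gene Lpin2 (1.29 kb). In all, 191 PDGFRα intronic peaks (7.11%, 6.19 to 8.14%) had a CD137 intronic peak of the same gene within 5 kb. How near 2 calls of 1 library could lie before the authors' processing merged them is unknown here, and its part in the scarcity of same-list pairs within 5 kb was not tested. Seen from the other side, 55.3% (53.4 to 57.2%) of the PDGFRα intronic peaks lay in a gene with a CD137 intronic peak, and the median distance to the nearest CD137 peak of any class was 42.5 kb.

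Along the gene, intronic peaks of both lists were fewest near the ends. Only rows of class intron were counted, so peaks classed as exonic, upstream or downstream were left out. A gene begins and ends with exons, and the part of this choice in the low shares at the ends was not tested. Strand was known for 17492 of 21887 genes and for the hosts of 1992 PDGFRα and 3383 CD137 peaks. In the first 10% of the gene lay 8.48% (7.34 to 9.79%) of the PDGFRα and 7.48% (6.64 to 8.41%) of the CD137 peaks, a difference of 1.01 points with an interval that includes 0 (-0.473 to 2.56). In the last 10% lay 6.07 and 5.82%, a difference of 0.251 points (-1.03 to 1.61). The third 10% held the most PDGFRα peaks, 11.8%. Measured in distance, PDGFRα peaks were nearer to the gene start, with a median of 59.4 kb (quartiles 22.8 and 158.1 kb) against 72.5 kb (28.2 and 183.0 kb). Within 10 kb of the start lay 10.1% of them and 7.66% of the CD137 peaks, a difference of 2.43 points (0.870 to 4.07). PDGFRα peaks also lay more often in shorter genes, and the difference in distance was not separated from gene length.

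**Figure D4:**
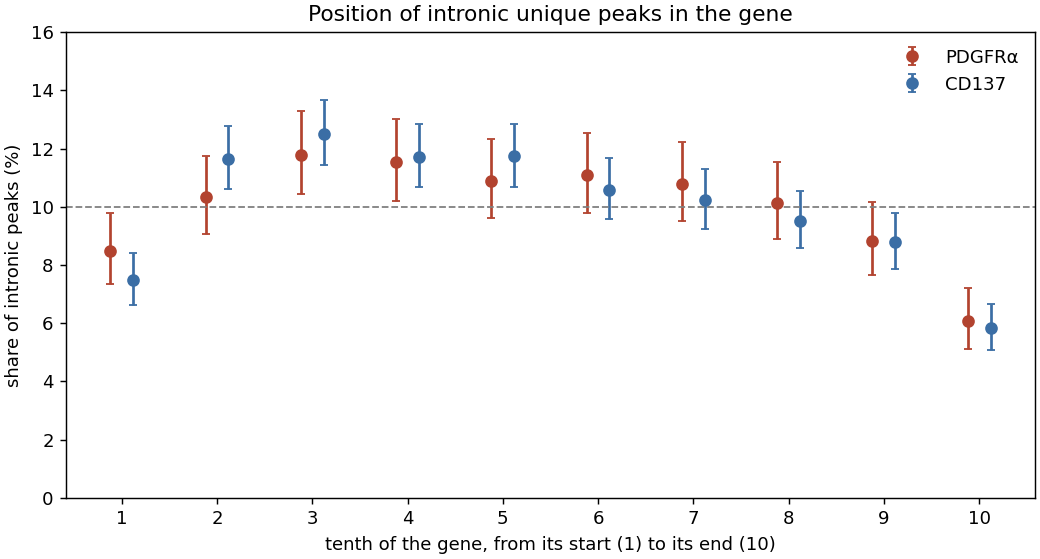
Share of intronic unique peaks in percent (y axis) in 10 equal steps from gene start to gene end (x axis), PDGFRα in red and CD137 in blue, with Wilson 95% intervals and a dashed line at 10%. Both lists are lowest in the last step, at 6.07 and 5.82%. Peaks classed as exonic are not counted.

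Gene lists differed in how many intronic peaks they held for the length of their genes. As a yardstick, each gene was given the mean density of the PDGFRα or CD137 intronic peaks in its class of length. Phosphodiesterases and protein kinase A anchoring genes had 41 PDGFRα peaks at 15 of 27 genes (1.89 times) and 62 CD137 peaks (1.49 times), with 5 and 1 in Pde10a and 4 and 1 in Pde3a. In the same list Prkg1 had 3 and 9, Akap6 2 and 6 and Akap13 0 and 4. Pde4d was already known to be rich in peaks when the list was written, and without it the values were 1.71 and 1.43 times. The same holds for the genes left out of other lists in what follows.

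Transcription factors of fat formation were rich in intronic peaks of both lists. They had 19 PDGFRα peaks at 8 of 22 genes, 2.47 times the mean density, and 51 CD137 peaks, 3.69 times, so that the PDGFRα share was 27.1% (exact interval 17.2 to 39.1%), an interval that includes the 37.0% of all intronic peaks. All 8 hosts had CD137 intronic peaks too. The nuclear factor I genes led, with 6 PDGFRα and 10 CD137 peaks in Nfia, 3 and 4 in Nfib and 2 and 1 in Nfix. Without 6 genes named by earlier results the list had 14 and 30 peaks, 2.98 and 3.61 times. Thermogenic and beige regulators had 5 PDGFRα peaks at 4 of 22 genes (0.717 times) and 13 CD137 peaks (0.980 times), with 2 and 4 in Esrrg and 1 and 2 in Prdm16, a determinant of brown and beige fat. Without 1 gene already known the list had 3 and 9 peaks, 0.537 and 0.860 times. Genes of lipid uptake, storage and lipolysis had 5 and 5 peaks (1.52 and 0.923 times). Of their 5 hosts Lpl, Lpin1 and Abhd5 had 1 PDGFRα peak each and no CD137 intronic peak. Acaca had 1 and 1 and Cd36 1 and 2, and Mgll, not a PDGFRα host, had 0 and 2.

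**Figure D5:**
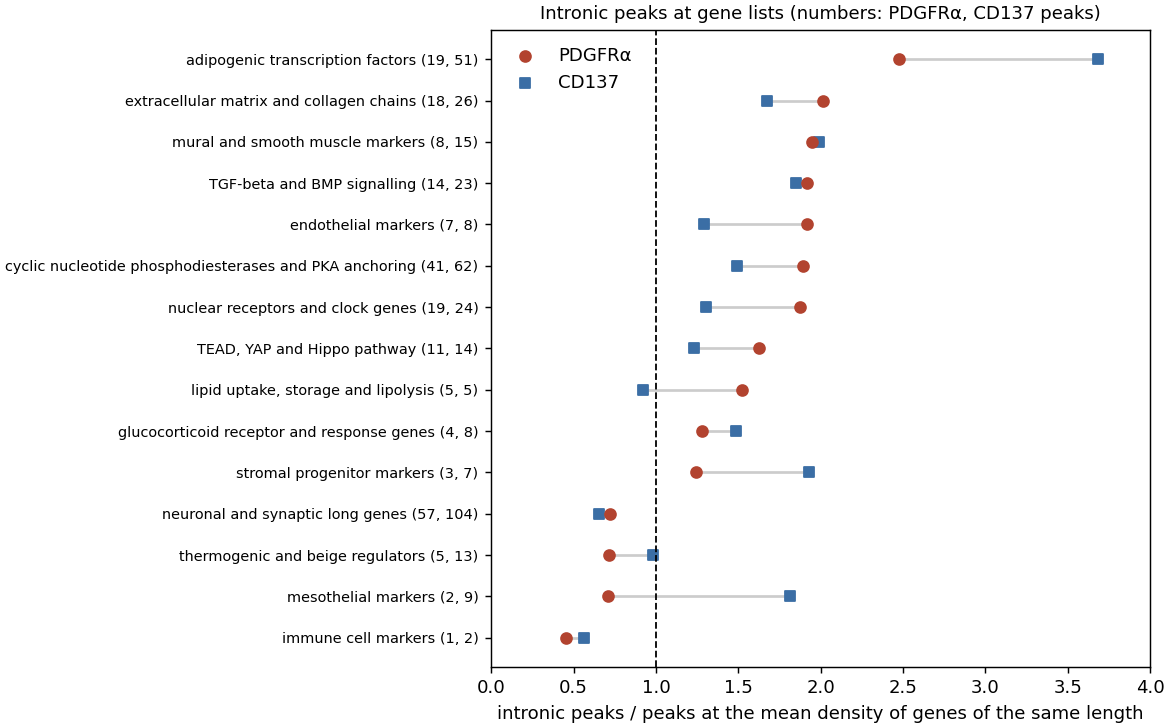
Intronic unique peaks at 15 gene lists, divided by the number expected at the mean density of genes in the same class of length (x axis), PDGFRα as red circles and CD137 as blue squares, with the peak numbers of both in brackets. The early embryo list, with fewer than 2 peaks at mean density, is left out. The dashed line is the mean density. Transcription factors of fat formation are at 2.47 and 3.69.

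In the Hippo and glucocorticoid lists, which bear on TEAD1 and dexamethasone, nearly every host held a single PDGFRα intronic peak. Over all 1777 hosts 73.2% held a single one. TEAD, YAP and Hippo genes had 11 PDGFRα peaks at 10 of 29 genes (1.63 times the mean density) and 14 CD137 peaks (1.23 times). Ptpn14 had 2 PDGFRα peaks, and Tead4, Vgll4, Limd1, Map4k4 and Wwc2 had 1 each, all without a CD137 intronic peak. The other way, Stk3 had 0 PDGFRα and 3 CD137 peaks, Frmd6 0 and 2, and Amotl1 and Amot 0 and 1 each. Wwtr1 and Wwc1 had 1 and 2 each. Tead1 itself, on chromosome 7, had 1 PDGFRα peak (112699502 to 112700957) and 2 CD137 peaks. The glucocorticoid list had 4 peaks at 4 of 26 genes and 8 CD137 peaks (1.28 and 1.49 times). Those 4 genes were Tsc22d3, the gene of the glucocorticoid-induced leucine zipper, with no CD137 intronic peak, and Fkbp5, Sgk1 and Pik3r1 with 1, 1 and 3. In the same list Nr3c2 had 0 PDGFRα and 2 CD137 peaks and Zbtb16 had 0 and 1. The TGF-beta and BMP genes had 14 and 23 peaks (1.92 and 1.85 times). Bmp6 had the most PDGFRα peaks, with 4 and 3, and the receptor gene Tgfbr2 had 1 and 0. Among those with more CD137 peaks, Ltbp1 had 1 and 9, and Acvr2a and Smurf1 had 0 and 2 each. Nuclear receptors and clock genes had 19 and 24 (1.87 and 1.30 times), and 12 and 20 (1.42 and 1.33 times) without Rora. The thyroid hormone receptor gene Thrb had 5 and 3 and the estrogen receptor gene Esr1 3 and 3. More CD137 peaks lay in other members, with 0 and 4 in Arntl, 0 and 2 in Pgr and 1 and 2 in Rarb.

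Matrix genes and markers of other cell types also contributed members. Extracellular matrix and collagen genes had 18 PDGFRα peaks at 10 of 32 genes (2.01 times) and 26 CD137 peaks (1.67 times), with 5 and 3 in Col8a1. Stromal progenitor markers had 3 and 7 peaks (1.24 and 1.93 times), and the receptor genes Pdgfra and Tnfrsf9, whose products were used for sorting, and Nr3c1, the glucocorticoid receptor gene, had no intronic peak in either list. Endothelial markers had 7 and 8 peaks (1.92 and 1.29 times), with 3 and 0 in the transcription factor gene Erg. Kdr, Flt1 and Flt4, genes of the VEGF receptors, had 1 and 0 each. Other endothelial markers went the other way, with 0 and 5 in Ets1 and 0 and 1 each in Fli1 and Tek. Vwf had 1 and 1. Without 3 genes already known the endothelial list had 2 and 7 peaks, 0.837 and 1.75 times, so the order of the groups turned. Mural and smooth muscle markers had 8 and 15 (1.95 and 1.99 times), mesothelial markers 2 and 9 (0.711 and 1.81 times), immune markers 1 and 2 (0.455 and 0.563 times) and early embryo markers 1 and 2. Neuronal and synaptic genes, with a median length of 1116 kb, had 57 and 104 peaks, 0.721 and 0.656 times the mean density, although Celf4, Kcnma1 and Ctnnd2 (6 and 4) were among them. The longest class takes in all genes above 300 kb, so most of these genes were set against shorter ones too. The part of length inside that class was not tested. Without the genes already known, neuronal genes had 24 and 66 peaks (0.448 and 0.614 times), mural markers 6 and 10 (1.87 and 1.74 times) and mesothelial markers 1 and 9 (0.369 and 1.85 times), so that the order turned for the neuronal and mural lists as well. The part of other cell types in these peaks was not tested.

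The intronic members resembled the CD137 intronic peaks in width. Their median was 1234.5 bp (quartiles 1028 and 1440 bp) against 1223 bp (1033 and 1429 bp), and 4.13% and 4.08% were at least 2 kb wide. Intronic peaks of PDGFRα were narrower than its peaks of the upstream class up5k, whose median was 1330 bp and of which 11.6% reached 2 kb. The widest member lay in Slc12a8, a gene of the cation-chloride cotransporter family, at 33575054 to 33579419 of chromosome 16 (4365 bp). It was followed by peaks in Trio (3883 bp), Tbc1d22a (3775 bp, the peak with the start shown at the beginning) and the deubiquitinase gene Usp2 (3663 bp), and by a peak of 3635 bp on the Y chromosome outside any protein-coding gene.

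Some hosts also had a unique peak elsewhere in or beside the gene. Of the 1837 Ensembl IDs with PDGFRα intronic peaks 308 (16.8%, 15.1 to 18.5%) also had an exonic, up5k or down5k peak of the same list, 181 of them an exonic and 80 an up5k peak. For CD137 it was 605 of 2543 (23.8%, 22.2 to 25.5%), a difference of -7.02 points for PDGFRα minus CD137 (-9.38 to -4.62). This direction rests on the longer CD137 list. Brought to the PDGFRα list length by the same kind of formula, the CD137 share was 14.8%, which is 1.92 points below the PDGFRα share. The PDGFRα list held 730 exonic, 885 up5k and 606 down5k peaks in all. The share of all genes with such a peak was not counted, so hosts cannot be set against other genes here.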

How the data were processed

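ATAC-seq peaks of 1 library per group were used as deposited. Per the file headers, each row gives a chromosome, start, end, Ensembl gene ID and place class, and the members are the rows of class intron. The submitters' processing notes name build mm10 and CASAVA 1.8 but no step they served. For aligner, peak caller, threshold and rule of uniqueness, nothing is stated in the sources used here.

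Positions are printed as deposited, and whether starts count from 0 or 1 is not stated. A peak was assigned to every RefSeq protein-coding gene (GRCm38.p6) whose span holds its centre. Shares carry Wilson or exact 95% intervals and differences Newcombe intervals. CD137 values at 2688 peaks come from exact formulas, and pairs are scaled by the number of possible pairs. The assignment of peaks to genes was tested on simulated data. So were the equal-length formulas for hosts, for peaks sharing a host and for close pairs. The other steps were not tested in this way. Members and gene lists were chosen with earlier results of these data known, and 1 of the 17 lists is not reported here. Named genes are those with the most PDGFRα intronic peaks, the densest, the tightest rows of 3, those with PDGFRα peaks only, the most CD137 peaks, the widest peaks, leading list members and the study's own genes. Genes named for promoter windows, opposite pairs or unbroken rows, and some further list members (among them Prdm16, Kdr and Wwc2), were picked after their values were seen. The promoter windows, the pairs by distance and the summary of genes with 6 or more peaks were added after the data were seen. The planned motif count over all peaks, and the planned peak sequences, needed a genome of the build and were left out. The software was matplotlib 3.10.9, scipy 1.17.1, pandas 2.3.3 and numpy 2.4.6 under Python 3.11.15.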

Additional observations from a re-analysis of the deposited data

How the results depend on the processing

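With 1 library per group no replicate could be left out and no paired analysis was possible. Of 49 alternative values 43 stayed within the limit set for them. For differences and medians with an interval the limit was that interval, and for the others it was 1.5 times the reported value. Direction was checked for differences and ratios, and not for medians, counts and the share of partners from the other list. The fall of the PDGFRα share with gene length was 7.04 points when genes of 30 to 100 kb were set against those above 200 kb. The difference in position was -0.300 points for the first 20% of the gene in place of 1.01 points for the first 10%, whose interval includes 0. The difference in hosts with other peaks was -1.50 points with up5k peaks alone and turned to 1.92 points with the CD137 list at the PDGFRα list length. The median distance to a CD137 peak was 80.6 kb to intronic CD137 peaks and 38.1 kb with the wider 50% of each list. The share of PDGFRα peaks' partners within 5 kb that came from the other list was 81.6%, and 66.0% within 10 kb. The limit of 1.5 times is wide for this share and counted 66.0% as the same. Over all pairs of intronic peaks anywhere, 37.0% of the partners of PDGFRα peaks were PDGFRα peaks and the rest CD137 peaks. The share within 5 kb, its alternatives and the list-length correction for other peaks were chosen after the data were seen. The gap in genes with 2 peaks was not run by deposited ID, which carries no gene length. Depth is unknown and was not equalised.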

Other observations

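Across chromosomes the PDGFRα share of intronic peaks ran, for chromosomes 1 to 19, from 33.3% on chromosome 6 (144 PDGFRα and 289 CD137 peaks, exact 95% interval 28.8 to 37.9%) to 42.3% on chromosome 15 (123 and 168, 36.5 to 48.2%), with 41.8% (37.2 to 46.5%) on chromosome 4. Per Mb of protein-coding gene span, PDGFRα intronic peaks were most frequent on chromosome 17 (3.59) and chromosome 13 (3.29). The X chromosome had 1.28 PDGFRα and 2.04 CD137 intronic peaks per Mb. The Y chromosome had 2 PDGFRα intronic peaks and 1 CD137 intronic peak.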
